A study of Mus musculus with 3 samples.

Results

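Transcripts of the chemokine genes Ccl24 (ENSMUSG00000004814), Ccl17 (ENSMUSG00000031780) and Ccl22 (ENSMUSG00000031779) were read in sorted myeloid cells of mice bearing B16F10 melanoma. They are 3 of the 27998 genes in the files, each with 1 row, and were followed in 14427 cells. The 3 were chosen from earlier results of these data, in which they differed between the tumors. Their levels in the tumors are therefore given as a description, with no test. All mice were of the strain C57BL/6J and carried subcutaneous B16F10 tumors, a transplanted melanoma line. Control blood and control tumor came from wild-type mice, labelled WT, with control treatment. The third group was tumor labelled FoxP3 DTR with the treatment treg-depleted. In such mice, cells that express Foxp3, the lineage factor of regulatory T (Treg) cells, carry the diphtheria toxin receptor and can be removed with the toxin. The toxin schedule, the number of animals behind each library and their ages are not given in the sources used here. The series' design text speaks of control mice in the plural but of a single Treg-depleted mouse, so the values after depletion may come from 1 animal set against a pool. Each group was 1 library, so genotype, depletion and any difference between animals cannot be told apart, and no p-value or replicate error is given. All libraries held live-gated cells sorted for CD45 and for CD11b, CD11c or both, and against CD90, NK1.1, Ly6G, B220 and Siglec-F. Blood was lysed for red cells and tumors were digested with enzymes, so tissue and handling cannot be told apart either.

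Chemokines are small secreted proteins that direct leukocytes through G protein-coupled receptors. CCL24, or eotaxin-2, is a ligand of CCR3, the receptor by which eosinophils and basophils are attracted. CCL17 and CCL22 share the receptor CCR4, found on Treg cells and T helper 2 cells. All 3 are grouped as type 2 chemokines because interleukin 4 and interleukin 13, acting through STAT6, are known inducers. Macrophages activated in that way are known sources of CCL24. Dendritic cells (DCs) are known sources of CCL17 and CCL22, in particular mature DCs that have gained the migration receptor CCR7.

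In the GENCODE M21 annotation of GRCm38, the build that UCSC names mm10, Ccl22 lies at chr8:94745590-94751699 and Ccl17 at chr8:94810453-94812036, both on the plus strand. The gap between them is 58.8 kb and holds Cx3cl1, the gene of fractalkine. Ccl24 lies at chr5:135569937-135573049 on the minus strand, 6.37 kb from Ccl26. Each has 3 exons. The stretch of 90 coding bases around the adjacent cysteine codons that give CC chemokines their name is shown for each gene from that annotation, 5′ to 3′ in the sense of the transcript, to show how far the members' coding sequences differ. The assay counts the 3′ ends of transcripts, so these stretches are not the sequences that were counted. Capitals mark the 2 cysteine codons, the last such pair in Ccl24.
Ccl24: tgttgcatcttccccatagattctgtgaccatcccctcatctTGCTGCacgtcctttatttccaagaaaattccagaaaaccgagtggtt
Ccl17: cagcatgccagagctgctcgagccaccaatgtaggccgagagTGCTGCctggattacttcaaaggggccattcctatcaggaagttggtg
Ccl22: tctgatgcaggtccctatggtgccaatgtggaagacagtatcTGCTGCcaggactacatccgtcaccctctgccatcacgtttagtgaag
The stretches start at coding base 55 in Ccl24, 85 in Ccl17 and 64 in Ccl22. Aligned on the capitals without gaps, Ccl17 and Ccl22 shared 40 of 90 bases, Ccl24 and Ccl22 30, and Ccl24 and Ccl17 27. The members thus differ at most positions in this stretch, and none of these stretches is a near-identical copy of another.

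The bases before the start of Ccl17 and Ccl22 are shown because these neighbours were read in overlapping cells, and interleukin 4 acts through STAT6. They come from the RefSeq promoter table (GRCm38.p6, plus strand), in which 2 of the 3 members were matched. Capitals mark the matches named after the sequences.
Ccl17, chr8:94810203-94810452: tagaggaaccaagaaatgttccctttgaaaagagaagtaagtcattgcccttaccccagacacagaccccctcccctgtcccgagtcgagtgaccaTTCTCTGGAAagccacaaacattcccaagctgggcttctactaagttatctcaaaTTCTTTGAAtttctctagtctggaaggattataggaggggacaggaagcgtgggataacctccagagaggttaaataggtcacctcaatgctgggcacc
Ccl22, chr8:94745434-94745589: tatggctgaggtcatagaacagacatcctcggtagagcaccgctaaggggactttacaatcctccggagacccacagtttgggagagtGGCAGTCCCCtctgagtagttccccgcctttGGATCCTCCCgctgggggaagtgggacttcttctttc
Letters were searched on both strands. In the Ccl17 window, TTC and GAA with 4 bases between them, the spacing known for STAT6, matched once as TTCTCTGGAA, 154 bases before the start. The spacing of 3 bases known for other STAT proteins matched once as TTCTTTGAA, 99 bases before it. The matches do not overlap. Of 32851 promoters, 5.85% and 7.02% held these letters in the same window. The Ccl22 window was cut at the earlier start that GENCODE gives and held neither spacing, which 3.87% and 4.59% of promoters held in that window. A loose NF-kB type, GGG and CC with 5 bases between them, matched in 2 places on the opposite strand, GGCAGTCCCC and GGATCCTCCC as printed. It was found in 28.8% of promoters in that window. Neither GGG and TTTCC with 2 bases between them nor TATAAA matched in either window, in the Ccl17 window against 1.41% and 12.4% of promoters and in the Ccl22 window against 0.807% and 7.52%. The loose NF-kB type was not in the Ccl17 window and was in 45.8% of promoters there. A match describes letters only.

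A barcode was kept as a cell from 1000 UMIs (unique molecular identifiers, each standing for 1 captured transcript) and 400 genes upward, with no more than 10% of UMIs mitochondrial. Control blood gave 5550 cells, the control tumor 4443 and the Treg-depleted tumor 4434, with medians of 3550, 6452 and 3820 UMIs. Cells were put into classes by fixed markers that did not include the 3 chemokines, Mrc1 or Arg1. The monocyte-macrophage lineage held 4298, 3818 and 3900 cells of the 3 libraries. Type 2 conventional DC-like (cDC2-like) cells numbered 474, 246 and 105, cDC1-like cells 40, 103 and 50, and mature DC-like cells 0, 28 and 14. The gate for mature cells used Ccr7 and that for cDC2-like cells used Flt3, so the levels of these genes in those classes are no finding. Cells passing these gates were kept out of the lineage, so the gates also shaped the levels of both genes there. Neutrophils, against which Ly6G was sorted, were still 294, 52 and 233. Their 12 markers summed to 378 CPM in all cells of the control tumor, with 1 at 0, and to 1264 CPM after depletion, with 0 at 0. A lineage cell had under 5% conventional DC markers among its DC, monocyte and macrophage marker UMIs, and a conventional DC had at least 10%. Between these lay 106, 98 and 75 cells, most of the 131, 110 and 126 cells that passed no gate. The classes are thus ranges of a marker share, with 30 lineage cells of the control tumor and 54 of the Treg-depleted tumor within 1 point below the lower limit. In the Treg-depleted tumor, the 10 leading genes of cDC1-like cells held 2 cDC1 markers, Itgae and Xcr1. They held as many markers of other lists, Birc5 of cycling cells and Flt3 of cDC2-like cells. Cell barcodes shared between libraries numbered 35, 27 and 36, against 33.4, 33.4 and 26.7 for barcodes drawn independently.

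Levels are given as CPM, the UMIs of a gene per 1000000 UMIs of a class, with 95% exact Poisson intervals in brackets. Shares carry 95% Clopper-Pearson intervals, and both cover counting error only. RNA set free from broken cells enters every droplet. Its make-up was read from barcodes with 1 to 50 UMIs. A cell counted as a producer when its UMIs of a gene exceeded what a droplet of the same depth holding only free RNA would exceed in at most 1 of 1000 Poisson draws, with at least 2 UMIs. This is a strict rule where a gene is abundant in free RNA. The classes least likely to make these genes, neutrophils and plasmacytoid DCs, gave the background in cells.

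Ccl24 was read chiefly in lineage cells of the Treg-depleted tumor. Over all cells the Treg-depleted tumor stood at 4851 CPM (4819.8 to 4882), the control tumor at 44.3 CPM (42.3 to 46.5) and control blood, with 29 UMIs, at 1.46 CPM (0.980 to 2.10). Lineage cells held 90872 of the 94068 UMIs in the first. In the lineage the levels were 1.61 CPM in blood, 48.7 CPM in the control tumor and 5309.8 CPM after depletion, so the libraries lay far apart. The Treg-depleted tumor thus stood 109-fold above the control tumor, a log2 ratio of 6.77 (6.70 to 6.84). That is the second highest of 11100 genes with at least 20 UMIs in either tumor, after Rnase2a, an eosinophil-associated ribonuclease gene. Of these genes 7.72% were 2-fold or more higher after depletion and 8.89% were 2-fold or more lower, with a median log2 ratio of −0.056. Among 38 chemokine genes Ccl24 ranked 17th in the control lineage and 1st in the Treg-depleted lineage, where it was the 16th most abundant of 14525 genes. Such ranks compare UMIs of a 3′ assay, which do not scale with gene length.

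**Figure D1:**
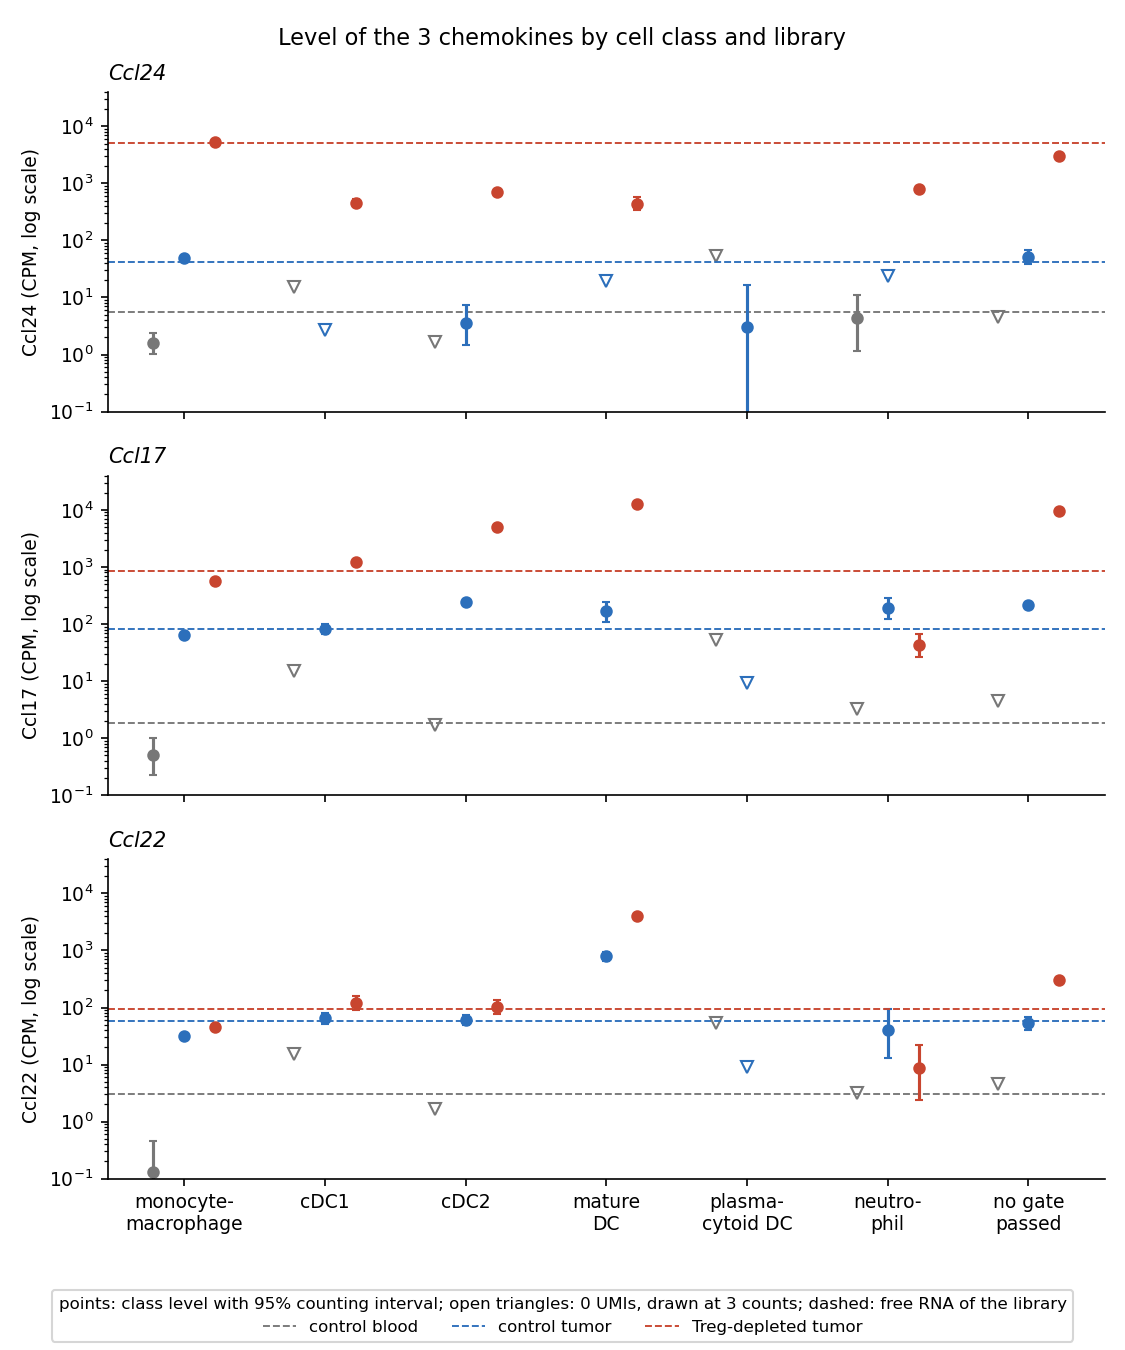
Level of each chemokine (CPM, log axis) by cell class in the 3 libraries, with 95% counting intervals. Dashed lines give the level in free RNA, and open triangles mark 0 UMIs, drawn at 3 counts. In the Treg-depleted tumor Ccl24 is highest in the monocyte-macrophage lineage at 5309.8 CPM, and Ccl22 in mature DC-like cells at 3956 CPM. For Ccl17 mature DC-like cells stand at 12501 CPM, or 6645 CPM without 1 cell, and ungated cells at 9747 CPM.

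After thinning every cell to 1000 UMIs, 66.5% (82.5% unthinned) of lineage cells of the Treg-depleted tumor had a Ccl24 UMI, against 2.33% (8.43% unthinned) in the control tumor. In Treg-depleted neutrophils, which should lack the gene, the share was 29.6% (42.1% unthinned) at a median depth of 1564 UMIs, against 3930.5 in the lineage. A single UMI therefore says little in that library, but high counts separated the classes. At least 10 of 1000 UMIs were reached by 18.8% of Treg-depleted lineage cells, 0.858% of neutrophils and 0.105% of control lineage cells. By the strict rule 735 of 3900 Treg-depleted lineage cells were producers, 18.8% (17.6 to 20.1), and 87 of 3818 control lineage cells, 2.28% (1.83 to 2.80). With a droplet taken as 20% free RNA there were 1646, or 42.2%. Thinned to 1000 UMIs the strict share was 11.8%. The median producer held 65 Ccl24 UMIs in the Treg-depleted tumor and 9 in the control tumor. These medians follow the rule, since at the median depth of the lineage it asked for more than 35 UMIs in the first library and 3 in the second, and they are not compared. Among Treg-depleted lineage cells the median level was 2021 CPM and the 99th percentile 36062 CPM. The 10% of cells with the most Ccl24 held 52.8% of its UMIs. In the control lineage, 1% of cells held 59.5%. The gene was thus read in few control cells and in a broad range of Treg-depleted ones.

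**Figure D2:**
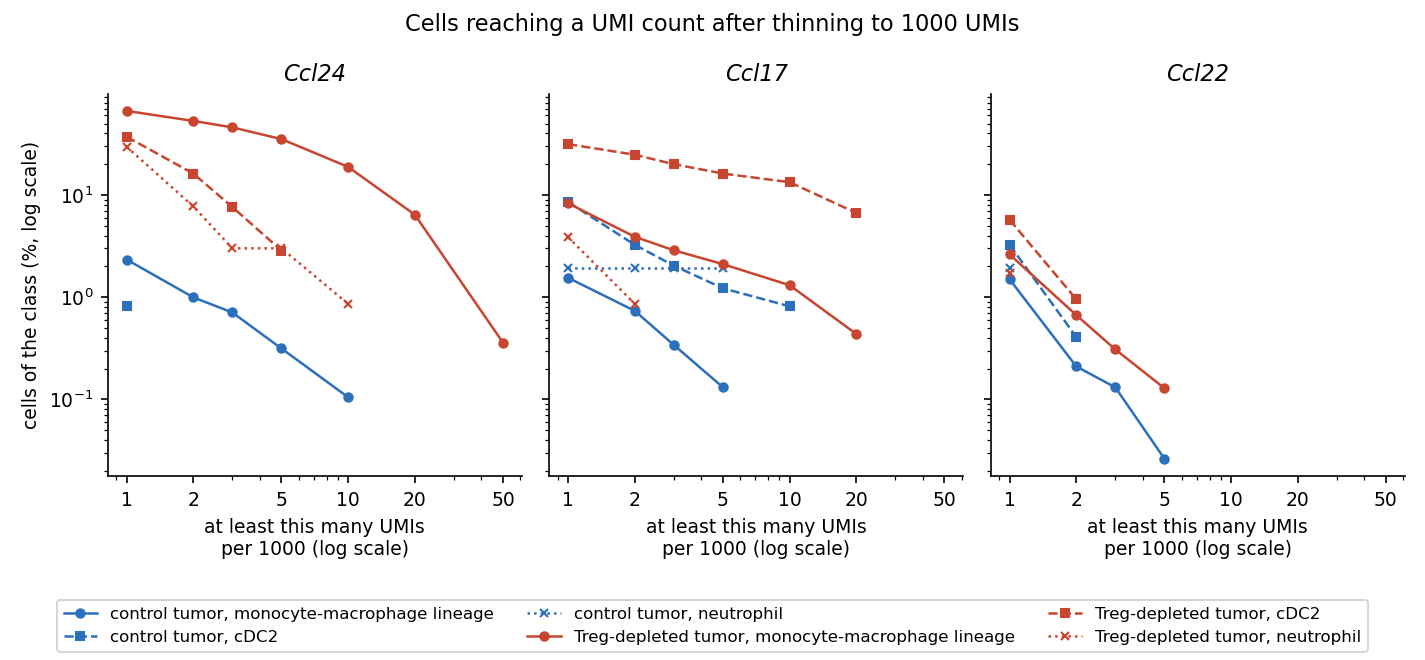
Share of cells (%, log axis) with at least a given number of UMIs of each chemokine (x axis, log) after thinning every cell to 1000 UMIs, in 3 classes of the 2 tumors. In the Treg-depleted tumor 18.8% of lineage cells reach 10 Ccl24 UMIs, and 13.3% of cDC2-like cells reach 10 Ccl17 UMIs.

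In the other Treg-depleted classes Ccl24 stood at 801 (721 to 887) CPM in neutrophils, 701 (627 to 781) in cDC2-like, 457 (395 to 525) in cDC1-like and 441 (335 to 570.5) in mature DC-like cells. Intervals overlapped between neutrophils and cDC2-like cells and between cDC1-like and mature DC-like cells. Free RNA stood at 5056 CPM, and these classes at 0.087 to 0.158 of it. These gated classes held 4 producers in all, and no expression is read from them. The 126 ungated cells held 2242 Ccl24 UMIs, 549 of them in 1 cell, and stood at 2298 CPM without that cell. Of the ungated cells 11 were producers, 8.73% (4.44 to 15.1), or 30.2% with a droplet taken as 20% free RNA. The C1q genes C1qa, C1qb and C1qc, read outside the lineage, gave a free RNA share of 6.38% in that library, and Ccl24 in neutrophils and plasmacytoid DCs stood at 14.8% of its free RNA level. The difference between these was not tested. Control cells differed here, with 0 Ccl24 UMIs in 103 cDC1-like cells, 28 mature DC-like cells and 52 neutrophils. That allows up to 3.52%, 12.3% and 6.85% of cells with a UMI.

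Within the Treg-depleted lineage, cells with Mrc1, the mannose receptor gene, or Arg1, the arginase gene, had Ccl24 more often. Thinned to 1000 UMIs, Ccl24 was found in 83.6% (81.1 to 85.8) of 986 cells with a Mrc1 UMI and in 60.7% (58.9 to 62.5) of 2914 without. For Arg1 the shares were 73.6% against 42.7%, for Retnla, a resistin-like gene, 86.7% against 62.5%, and for Chil3, a chitinase-like gene, 73.9% against 59.1%. Ly6c2, a monocyte surface gene, went the other way with 63.7% against 68.8%. In the control lineage the shares were 3.16% against 2.26% for Mrc1 and 3.08% against 2.25% for Arg1, with overlapping intervals. Cells of 1 library share their source, so these shares describe the library.

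Producers of Ccl24 in the Treg-depleted lineage were compared with the other 3165 lineage cells, at median depths of 4286 and 3846 UMIs. Of genes at 200 CPM or more, those with the largest ratio were Ccl7 (5761 against 2844 CPM), a monocyte attractant, Chil3 (4231 against 2092 CPM), the fibronectin gene Fn1, the monocyte attractants Ccl12 and Ccl2, the lectin genes Mgl2 (429.5 against 229 CPM) and Clec10a, and Arg1 (7644 against 4082 CPM). Mrc1 stood at 521 against 308 CPM and Retnla at 1635 against 977 CPM. The smallest ratios were those of the interferon-inducible genes Cxcl10 (168 against 422 CPM), Rsad2 and Pyhin1, the chemokine gene Ccl5, the lysozyme gene Lyz2 (2059 against 4190.2 CPM), and Rgs1, Lsp1 and Marcksl1. Ccl22 stood at 6.10 against 56.1 CPM. In the 87 producers of the control lineage the largest ratio was that of Retnla (952 against 39.9 CPM), followed by Fn1, Cxcl3, Cxcl1, Il1a and Pf4, with Arg1 at 595 against 269.8 CPM. Mrc1 stood at 171 against 102 CPM there, a log2 ratio of 0.75 (0.51 to 0.98). Retnla, Fn1, Arg1 and Mrc1 were thus higher in the producers of both tumors, while Chil3, at 316 against 337 CPM in the control tumor, was not.

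Clusters of the lineage, made without the 3 chemokines, Mrc1 and Arg1, differed in Ccl24. After depletion a cluster of 2124 cells led by Retnla, Ccl8 and Mrc1 stood at 6843 CPM, with 24.95% producers. The cluster of 1196 cells led by Il1a, Serpinb2 and Cxcl1 stood at 4491 CPM (14.7%). The cluster of 473 cells led by Hp, Ifitm6 and Spic, with the most Ly6c2, stood at 1566 CPM (5.71%). Only clusters with at least 100 lineage cells in a library were read. All 3 exceeded the control clusters read, which stood at 43.4, 60.6 and 69.5 CPM. The markers of the lineage moved with the tumors as well: over all cells the 10 macrophage markers summed to 11352 CPM in control and 2603 CPM in depleted tumor, and the 7 classical monocyte markers to 3406 and 4219 CPM, with 0 markers of either list at 0. Their part in the Ccl24 difference was not tested.

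Ccl17 was led by DCs and by cells between the DC and lineage gates. Over all cells the Treg-depleted tumor stood at 1109.96 CPM (1095 to 1125), the control tumor at 79.03 CPM (76.3 to 81.9) and control blood, with 10 UMIs, at 0.504 CPM (0.242 to 0.928). The log2 ratio of the tumors over all cells was 3.81 (3.76 to 3.87), where 7.62% of 11382 genes were 2-fold or more higher and 8.63% lower. After depletion the order was mature DC-like cells at 12501 (11904 to 13120.2), ungated cells at 9747 (9525 to 9973), cDC2-like cells at 4961 (4761 to 5167), cDC1-like cells at 1234 (1131 to 1343), lineage cells at 566 (554 to 577) and neutrophils at 43.4 (26.5 to 67.1) CPM. No intervals of neighbours overlapped, but 1 mature DC-like cell held 878 of the 1643 UMIs of its class. Without it the level was 6645 CPM, below the ungated cells. Of the 126 ungated cells, 75 lay between the DC and lineage marker shares, at 7122 CPM, and held 30 of the 50 ungated producers. In the control tumor the values were 247 (226 to 271) CPM in cDC2-like, 212 (185 to 241) in ungated, 168 (109.7 to 246) in mature DC-like, 82.3 (66.4 to 101) in cDC1-like and 65.3 (62.6 to 68.05) in lineage cells. The intervals of the first 3 overlapped. The 24 UMIs of control neutrophils all came from 1 cell, and 67 plasmacytoid DCs had 0, which allows up to 5.36% of cells with a UMI.

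In cDC2-like and mature DC-like cells together, 119 cells of the Treg-depleted and 274 of the control tumor, Ccl17 stood at 6618 against 242 CPM, a log2 ratio of 4.78 (4.64 to 4.91). It ranked 7th of 6123 genes, of which 3.41% were 2-fold or more higher and 8.85% lower, with a median of −0.12. There it was the highest of the 38 chemokine genes and the 10th of 10307 genes after depletion, and the 8th chemokine gene among control cells. The 12 mature DC markers over all cells summed to 876 CPM in control and 470.02 CPM in depleted tumor, with 0 at 0, and their part was not tested. A stricter gate gave 6.03 and cDC2-like cells alone 4.33. In cDC1-like cells it stood at 1234 against 82.3 CPM, 3.91 (3.58 to 4.24), where 3.44% of 4529 genes were 2-fold or more higher and 6.07% lower. In the lineage it stood at 566 against 65.3 CPM, 3.12 (3.05 to 3.18), rank 49 of 11100, and a stricter gate gave 2.47. Thinned to 1000 UMIs, a Ccl17 UMI was found in 31.4% (39.05% unthinned) of cDC2-like cells of the Treg-depleted and 8.54% (14.6% unthinned) of the control tumor. In the lineage the shares were 8.28% (16.8% unthinned) and 1.55% (5.37% unthinned). The share in Treg-depleted neutrophils was 3.86% (7.30% unthinned), at median depths of 1564 UMIs against 2524 in cDC2-like cells.

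Producers of Ccl17 were few and held most of its UMIs. The Treg-depleted tumor had 200, with a median of 63.5 Ccl17 UMIs, and the control tumor 100, with 20.5. Here too the rule bears on the medians, as it asked for more than 10 and 4 UMIs at the median depth of all cells. They held 92.7% and 89.5% of the Ccl17 UMIs in cells. Of the 200, 116 were lineage cells, 2.97% (2.46 to 3.56) of that class, 50 ungated cells, 39.7% (31.1 to 48.8), 22 cDC2-like cells, 20.95% (13.6 to 29.99), 8 mature DC-like cells of 14 and 4 cDC1-like cells. Of the 100, 72 were lineage cells, 1.89% (1.48 to 2.37), 13 cDC2-like, 5.28% (2.84 to 8.87), 7 ungated, 6 cDC1-like, 1 mature DC-like and 1 neutrophil. Most producers were thus lineage cells by number, while the share of producers was higher in DCs. Producers were deeper than other cells, with median UMIs of 7148 against 3712 after depletion and 16234 against 6379 in the control tumor. Doublet scores marked 9 of the 200 and 4 of the 100, beside 3.50% and 3.55% of other cells. The part of depth in the calls was not tested.

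Ccl17 producers carried more DC markers than other cells. The median share of conventional DC markers was 3.64% in Ccl17 producers and 0.257% in other cells of the Treg-depleted tumor. In bins of that share from under 1% to over 20%, the level was 189, 1187, 3118, 7122, 7565 and 6709.9 CPM. Ccl24 ran from 5687 CPM in the first bin to 446 in the last, against this order. Control cells stood at 17.7 Ccl17 CPM in the first bin and between 118 and 294 in the others. Without lineage cells above a share of 1% the Ccl17 log2 ratio in the lineage was 3.43, so the difference was as large among the cells with the fewest DC markers.

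**Figure D3:**
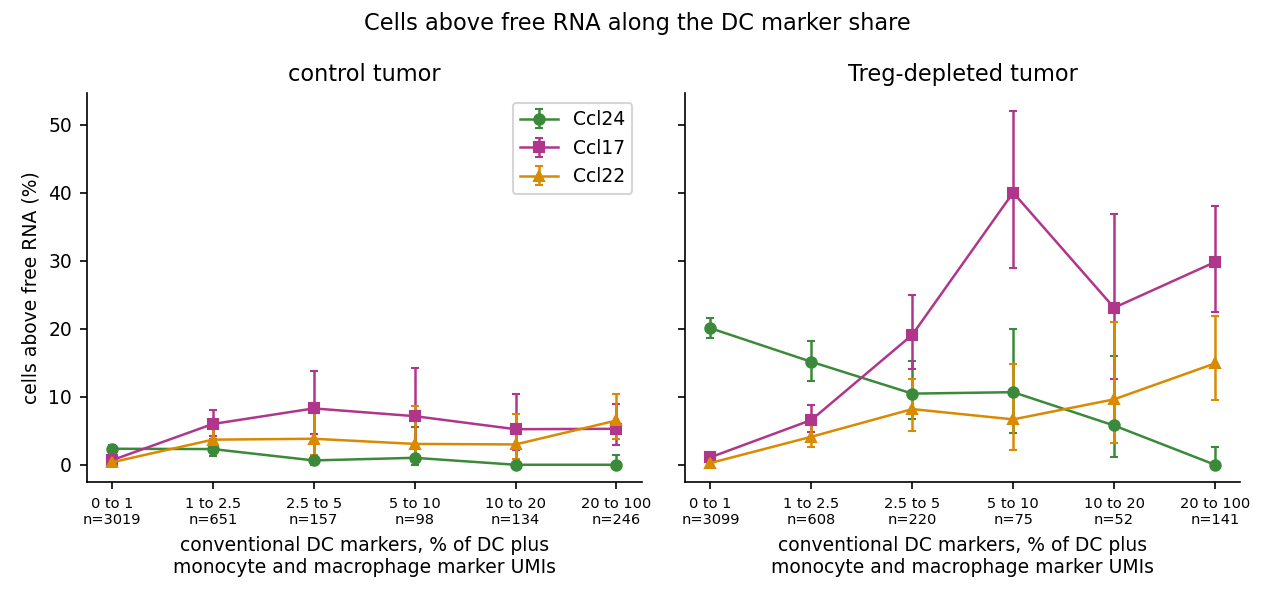
Share of cells above free RNA (%) for each chemokine by the share of conventional DC markers among DC, monocyte and macrophage marker UMIs (bins, with the number of cells), with 95% counting intervals, in the 2 tumors. After depletion Ccl24 producers go from 20.1% in the lowest bin to 0 of 141 cells in the highest, and Ccl17 producers reach 40% between shares of 5 and 10%.

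Ccl17 was set against Ccr7 and Flt3, the receptor gene of a DC growth factor, cell by cell. Thinned to 1000 UMIs, Ccl17 was found after depletion in 49.3% (40.7 to 57.9) of 138 cells with a Ccr7 UMI and in 8.94% (8.10 to 9.83) of 4296 without. Control cells gave 9.67% against 1.42%. Within the lineage alone the shares were 39.2% against 7.64% after depletion and 8.17% against 1.07% in the control tumor. Flt3 was too scarce to separate cells well: Ccl17 was found in 7 of 15 Flt3-positive cells after depletion and 2 of 59 of the control tumor. The partner genes did not go with Ccl17 between the tumors. Over all cells Ccr7 stood at 69.7 against 222 CPM and Flt3 at 5.62 against 13.2 CPM, both lower in the Treg-depleted tumor. In the lineage Ccr7 stood at 37.2 against 155 CPM and Flt3 at 1.46 against 5.48 CPM. The log2 ratios were −2.06 (−2.18 to −1.94) and −1.91 (−2.57 to −1.30). These lineage levels lay below free RNA, which stood at 61.7 against 232 CPM for Ccr7 and 7.97 against 14.8 CPM for Flt3. The gates shaped them as well, so no change in lineage cells is read from them.

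**Figure D4:**
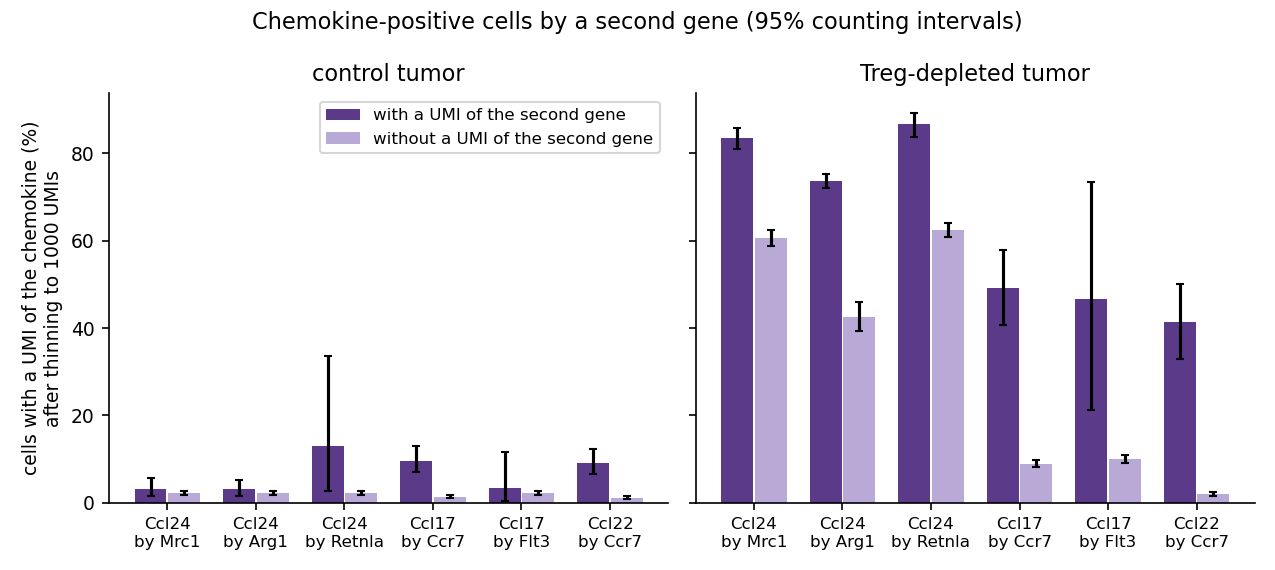
Share of cells with a UMI of a chemokine (%) among cells with and without a UMI of a second gene, after thinning to 1000 UMIs, with 95% counting intervals, in the 2 tumors. Ccl24 is shown in the monocyte-macrophage lineage and Ccl17 and Ccl22 in all cells. After depletion Ccl17 is in 49.3% of cells with Ccr7 and 8.94% of those without.

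Over all cells of the Treg-depleted tumor, the genes with the largest ratio in Ccl17 producers were Ccl22 (710.04 against 31.3 CPM), Plet1, a surface protein gene (623 against 48.5 CPM), Ccr7 (413 against 40.5 CPM), the co-stimulatory receptor gene Tnfrsf9, the protease inhibitor gene Serpinb9, the receptor-modifying gene Ramp3, the class II chaperone gene H2-DMb2 and Mgl2 (1289 against 236 CPM). The smallest ratios were those of S100a8 and S100a9, genes of neutrophils and monocytes, Ccl4, Slpi, Ccl3, Plac8, Mgst1 and Ly6c2 (262 against 1166 CPM). Among control cells Ccl22 (227 against 28.5 CPM), Mgl2 (409 against 66.5 CPM) and Ccr7 (551 against 206 CPM) led as well, followed by AA467197, Serpinb9, Ccnd2, Ramp3 and Cst3. Among the 116 lineage producers of the Treg-depleted tumor, Plet1 (319 against 15.5 CPM), Ccl22 (423 against 27.1 CPM), Ccr7 (219 against 28.1 CPM) and Mgl2 (866 against 239 CPM) were again among the 8 leading genes. Ccl22, Ccr7 and Mgl2 were thus higher in Ccl17 producers in each of these 3 sets.

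The Ccl22 level was led by mature DC-like cells in both tumors. By number of UMIs these held 8.44% of Ccl22 in control and 31.7% in Treg-depleted cells, against 74.3% and 48.1% in the lineage. Over all cells the Treg-depleted tumor stood at 84.5 CPM (80.4 to 88.7), the control tumor at 37.4 CPM (35.5 to 39.4) and control blood, with 2 UMIs, at 0.101 CPM (0.012 to 0.364). The log2 ratio of the tumors was 1.18 (1.07 to 1.28). The 14 mature DC-like cells of the Treg-depleted tumor stood at 3956 (3624 to 4312) CPM and the 28 control ones at 788 (654 to 941) CPM. Ungated cells followed after depletion at 299 (261 to 341), then cDC1-like cells at 122 (91.6 to 159.9), cDC2-like cells at 103 (75.9 to 136), lineage cells at 46.04 (42.9 to 49.4) and neutrophils at 8.68 (2.37 to 22.2) CPM. The intervals of cDC1-like and cDC2-like cells overlapped. Control cDC1-like, cDC2-like, ungated and neutrophil values of 64.4, 60.8, 52.7 and 40.2 CPM had overlapping intervals, above the lineage at 31.7 (29.8 to 33.6) except for neutrophils. Thinned to 1000 UMIs, 71.4% (100% unthinned) of 14 and 28.6% (71.4% unthinned) of 28 mature DC-like cells had a Ccl22 UMI, against 1.72% (1.72% unthinned) and 1.92% (5.77% unthinned) of neutrophils. Median depths were 8610 and 5639.5 UMIs in the first and 1564 and 1396 in the second.

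In cDC2-like and mature DC-like cells together Ccl22 stood at 950.02 against 115 CPM, a log2 ratio of 3.05 (2.83 to 3.27), rank 12 of 6123. In cDC2-like cells alone the ratio was 0.76, so the difference rested on the mature DC-like cells, and 2 of the 14 held 164 and 146 of 520 UMIs. In the lineage Ccl22 stood at 46.04 against 31.7 CPM, 0.54 (0.41 to 0.67), under 2-fold. With a stricter gate that ratio was −0.030, and without cells above a DC marker share of 1% it was −0.24, so no direction is given for the lineage. Of the 3 members 2 were thus 2-fold or more higher in the lineage (7.72% of all genes) and all 3 in these DCs (3.41%), where no expression of Ccl24 is read. The members were chosen on this contrast, and nothing is read from these counts.

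Ccl22 producers numbered 64 in control and 82 in depleted tumor. Lineage cells gave 41, a share of 1.07% (0.772 to 1.45), and 51, a share of 1.31% (0.975 to 1.72). The others were 7 of 28 and 12 of 14 mature DC-like cells, 9 and 2 cDC2-like, 4 and 4 cDC1-like and 3 and 13 ungated cells. Producers in the Treg-depleted tumor were marked by genes of mature DCs, namely Fscn1, the fascin gene (265 against 2.89 CPM), Ccr7 (1116 against 31.6 CPM), Serpinb6b, Tbc1d4 and Il4i1, and by Ccl17 (10459.7 against 770.3 CPM), Serpinb9 and Ccl5. Control producers were led by Il12b, the gene of the shared subunit of interleukins 12 and 23 (473 against 19.96 CPM), Ccl17 (950.3 against 55.8 CPM), Fscn1 (390.5 against 29.3 CPM), Serpinb6b, Ccr7, Tbc1d4, Serpinb9 and Nr4a3. Ccr7-positive cells had a Ccl22 UMI in 41.3% against 1.96% of those without Ccr7 after depletion and 9.20% against 1.09% in the control tumor, thinned to 1000 UMIs. Here too producers were deeper than other cells, at medians of 7726 against 3759 and 14602 against 6402 UMIs. Of them 7 of the 82 and 5 of the 64 were scored as doublets, 8.54% and 7.81%. Among other cells of these tumors the shares were lower, 3.45% and 3.49%. The part of doublets in the calls was not tested.

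Producers of Ccl17 and of Ccl22 overlapped in part. Over all Treg-depleted cells 4.51% were producers of Ccl17, 1.85% of Ccl22 and 16.9% of Ccl24. Among all control cells the shares were 2.25%, 1.44% and 1.98%. After depletion 45 cells were producers of both Ccl17 and Ccl22, 22.5% of Ccl17 and 54.9% of Ccl22 producers. Among control cells 21 were, 21% and 32.8%. Ccl17 and Ccl24 were shared by 22 Treg-depleted cells, 11% of Ccl17 and 2.93% of Ccl24 producers, and by 3 control cells. Ccl22 and Ccl24 were shared by 0 of 82 and 750 producers after depletion and by 2 control cells. With the 20% free RNA rule these pairs were shared by 70, 123 and 38 Treg-depleted cells. The 123 were 43.0% of Ccl17 producers and the 38 were 32.8% of Ccl22 producers. By that rule 38.4% of all Treg-depleted cells were Ccl24 producers, so nothing is read from the overlaps with Ccl24 after depletion. The count for Ccl24 depends on how much free RNA a droplet is taken to hold.

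The genes next to the members had few UMIs. Cx3cl1, between Ccl22 and Ccl17, had 7 UMIs in the lineage after depletion and 22 in control lineage cells, and 7 and 10 in cDC2-like and mature DC-like cells. Ccl26, next to Ccl24, had 0 UMIs in both tumors. Ccl11, the gene of eotaxin-1, which shares the receptor of CCL24, had 4 and 4 UMIs in the lineage. Of the other 35 chemokine genes 20 had enough UMIs in the lineage. Of these, Ccl6 (2980.4 against 1419 CPM), Ccl8 (1789 against 745 CPM), Cxcl3 and Cxcl5 were at least 2-fold higher and Ccl5 (316 against 693 CPM), Cxcl1, Cxcl9 (175 against 500.2 CPM) and Cxcl14 at least 2-fold lower after depletion. Their median log2 ratio of 0.017 stood beside −0.056 for all lineage genes, of which 7.72% were higher and 8.89% lower. In cDC2-like and mature DC-like cells 5 of 15 were at least 2-fold higher, namely Ccl2, Ccl3, Ccl4, Ccl7 and Ccl8, and 0 lower, with a median of 0.63. Over all genes of these DCs 3.41% were higher and 8.85% lower, with a median of −0.12. All 5 stood far higher in the lineage of the same library, Ccl7 for example at 3430.5 against 214 CPM, and the part of free RNA in them was not tested.

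**Figure D5:**
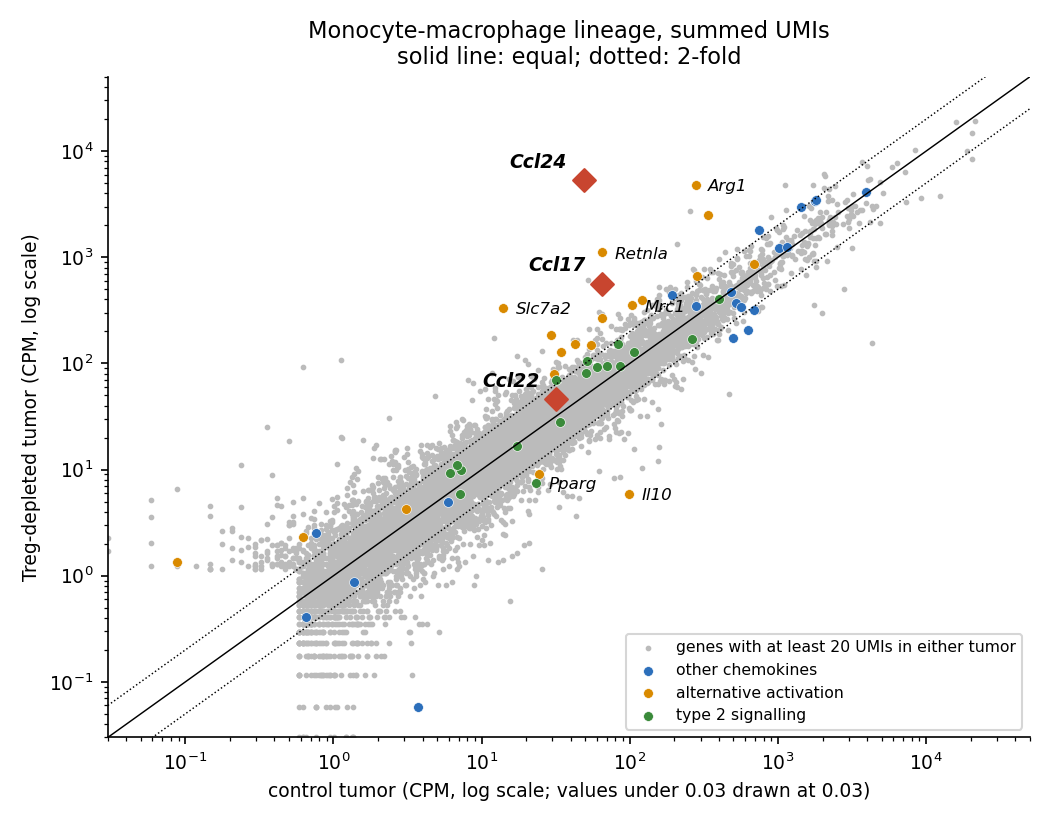
Level of each gene (CPM, log axes) in the monocyte-macrophage lineage of the control tumor (x axis) and of the Treg-depleted tumor (y axis), for 11100 genes with at least 20 UMIs in either. Diamonds mark the 3 chemokines and colours the 3 gene lists. Ccl24 lies at 48.7 and 5309.8 CPM, far above the equal line, Ccl17 lies above the 2-fold line and Ccl22 within it.

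The receptors of the 3 ligands were nearly unread in the sorted cells. Ccr4 had 0 UMIs in each of the 3 libraries and Ccr3 had 12, 14 and 15 UMIs in cells of blood, control tumor and depleted tumor. The scavenger receptor gene Ackr2 had 0 and Ackr1 had 8, 0 and 0. Dpp4, a peptidase known to cut CCL22, stood at 55.7 CPM in Treg-depleted and 56.7 CPM in control cDC2-like cells. Its lineage values of 2.69 and 8.81 CPM lay below the free RNA levels of 3.98 and 18.1 CPM. The sort was against Siglec-F and CD90, which eosinophils and T cells carry. The 6 eosinophil markers summed to 1.24 CPM in the Treg-depleted tumor, with 3 at 0, and Foxp3 had 0, 1 and 0 UMIs in cells, so the depletion cannot be checked here. Of the type 2 cytokine genes Il13 and Il25 had 0 UMIs in all libraries, Il4 had 16, 0 and 8 and Il5 0, 0 and 2. In blood 10 of the 16 Il4 UMIs lay in 31 cells gated as basophils or mast cells. After depletion 7 of the 8 Il4 UMIs came from 1 cell gated as a neutrophil, and the 2 Il5 UMIs from 1 cDC2-like cell. Of the 7 type 2 cytokine genes 2 had enough UMIs in the lineage, Il33 and Tslp, and neither differed by 2-fold.

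Most genes of type 2 signalling stayed within 2-fold in the lineage. Of 17 genes in the lineage, 2 were at least 2-fold higher, Il13ra1, a receptor chain for interleukin 13 (70.1 against 31.5 CPM), and Socs1, a feedback inhibitor (105 against 51.7 CPM). The nuclear receptor gene Pparg was at least 2-fold lower (7.48 against 23.3 CPM). Il4ra, the receptor chain shared by both cytokines, stood at 93.7 against 69.9 CPM and Stat6 at 27.9 against 33.8 CPM. The median log2 ratio was 0.42, against −0.056 for all genes, of which 7.72% were higher and 8.89% lower. In cDC2-like and mature DC-like cells 1 of 16 was at least 2-fold higher, the kinase gene Tyk2, from 15 and 21 UMIs, and 0 were lower, beside 3.41% and 8.85% of all genes there, with Il4ra at 85.3 against 134 CPM and Cish at 120.4 against 95.7 CPM. Most genes of alternative macrophage activation stood higher. Of 19 in the lineage, 15 were at least 2-fold higher, with a median of 1.85, beside 7.72% higher, 8.89% lower and a median of −0.056 over all lineage genes. Among them Arg1 stood at 4798 against 279 CPM, the arginine transporter gene Slc7a2 at 332 against 13.97 CPM, Retnla at 1109.5 against 64.8 CPM, Pdcd1lg2, the gene of the ligand PD-L2, at 187 against 29.6 CPM and Mrc1 at 351 against 104 CPM. Folr2 (9.17 against 24.3 CPM) and the cytokine gene Il10 (5.90 against 98.4 CPM) were at least 2-fold lower. In cDC2-like and mature DC-like cells 9 of 13 were at least 2-fold higher and 0 lower, with a median of 1.30, beside 3.41% higher, 8.85% lower and a median of −0.12 over all genes there. Among them were Mgl2 at 1117 against 330.04 CPM and Ear2 at 263 against 32.2 CPM. Several of these, such as Arg1 and Retnla, are abundant in the lineage, and free RNA was not separated from expression for them.

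Over 14 sums of a class in a library, those with at least 50 cells, the levels of the 3 members were set against 4962 genes. Pearson's r of log2(CPM + 10) is given as a description, since the sums share libraries, depth and free RNA. They include the Treg-depleted neutrophils, cDC1-like and cDC2-like cells, from which no Ccl24 expression is read. The part of free RNA in r was not tested. Nearest to Ccl24 were Erdr1 (r = 0.97), Arg1 (0.95), Slc7a2 (0.95) and the collagenase gene Mmp13 (0.95), followed by Mapk1ip1l, Usmg5, Aff1 and Psme2b. Nearest to Ccl17 were Ccl22 (0.94), the cytokine-induced inhibitor gene Cish (0.93), the vitamin D receptor gene Vdr (0.92), the metallothionein gene Mt2 (0.92) and Mgl2 (0.90), followed by Gm4951, Riok3 and Qpct. Nearest to Ccl22 were the repressor gene Etv3 (0.96), Cish (0.96), Qpct (0.95) and Ccl17 (0.94), followed by Mt2, Prelid2, Ramp3 and Nr4a2. Ccl17 and Ccl22 shared Cish, Mt2 and Qpct among these, and neither shared a gene with Ccl24.

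Blood held almost none of the 3 transcripts. Its 4298 lineage cells had 25 Ccl24, 8 Ccl17 and 2 Ccl22 UMIs. Its 474 cDC2-like cells had 0 of each, which allows up to 0.775% of cells with a UMI. Of the 8 Ccl17 UMIs in the lineage, 7 came from 1 cell. Control tumor over control blood, the lineage had log2 ratios of 4.92 (4.35 to 5.55) for Ccl24, 6.99 (6.01 to 8.20) for Ccl17 and 7.94 (6.09 to 10.99) for Ccl22. All 3 members were thus over 2-fold higher, as were 16.5% of 11262 genes, with 21.8% lower, and so were 16 of the 20 other chemokine genes with enough UMIs. Depleted tumor over the same blood library, so sharing its control, the log2 ratios were 11.69 (11.13 to 12.32), 10.10 (9.12 to 11.31) and 8.48 (6.63 to 11.53), where 16.8% of 10781 genes were 2-fold or more higher and 27.1% lower.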

How the data were processed

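Myeloid cells were profiled in 3 libraries with the Chromium 3′ v2 kit, per the labels' protocols, and processed with Cell Ranger 1.2 and mm10, per the submitters' processing notes. The deposited matrices hold whole-number UMI counts, not normalized, for 27998 genes and all 737280 barcodes. The members, gene lists, markers and tests were chosen with earlier results of these data known. Barcodes were filtered as the report gives. Doublets were scored by simulated doublets among neighbours (246, 158 and 157 cells) and kept, with removal as an alternative. Marker UMIs per 10000 were averaged over a cell and its neighbours, 10 in all, in 30 principal components of 2000 variable genes, made without the 3 chemokines, Mrc1 and Arg1. Clusters used 20 neighbours and Leiden resolution 1. Gate limits were set with the data in view. Of the fixed marker lists, Irf8, Naaa, Clec10a, Ltb and Tbc1d4 were left out of the conventional DC gates. Mature DC-like cells needed 50 mature DC marker UMIs per 10000 and more of these than lineage markers. Counts were summed by class and library. Ratios carry 95% conditional binomial intervals. With 1 library per group no test was made. The scripts were tested on simulated data. Libraries held 22944387, 42493416 and 23291061 UMIs, of which 86.4%, 91.03% and 83.3% were in cells. Named genes were the members, the partners Flt3, Ccr7, Mrc1 and Arg1, fixed lists, the 8 genes most like each member, and the 8 genes with the largest and the smallest ratio in producers, at 200 CPM or more in the higher set. Where genes overlap or share sequence, counts depend on the upstream assignment, which the sources used here do not give. Tools were Python 3.11.15, scanpy 1.11.5, SciPy 1.17.1 and scikit-learn 1.9.0. The alternatives tried are in the closing section.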

Additional observations from a re-analysis of the deposited data

How the results depend on the processing

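The Ccl24 ratio in the lineage, log2 6.77, ran from 6.72 to 6.82 over the alternatives. Settings for the marker gate moved the other members most. The Ccl17 ratio in cDC2-like and mature DC-like cells, 4.78, was 6.03 with a stricter gate, 5.12 with classes from clusters and 4.33 in cDC2-like cells alone. In the lineage its ratio of 3.12 was 2.47, 3.37, 2.99 with doublets removed, 3.03 with free RNA subtracted and 3.43 without cells above a DC marker share of 1%. The Ccl22 ratio in these DCs, 3.05, was 2.58 with clusters, 2.69 with the cells between the gates added, 2.78 without the highest cell of each tumor and 0.76 in cDC2-like cells alone. In the lineage its 0.54 was −0.030 with the stricter gate and −0.24 without cells above 1%. The share of Ccl24 producers, 18.8%, was 42.2% with a droplet of 20% free RNA and 11.8% thinned to 1000 UMIs. Genes at least 2-fold different in the lineage numbered 1844 (857 higher, 987 lower) and 330 (200 higher, 130 lower) among genes of at least 50 CPM. The settings on cDC2-like cells alone, the cells between gates, the highest cell and the 1% share were chosen after seeing the data. Except where fewer cells or genes enter by construction, the cause was not tested. Of 460 alternatives for 66 ratios of named genes, 0 changed a called direction and 6 crossed 2-fold. No paired analysis was possible because each group has 1 library. Cell number limits the small classes, such as the 14 mature DC-like cells of the Treg-depleted tumor.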
